A study of Homo sapiens with 12 samples.

Results

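The genes described here are HPGD and 9 other genes of prostaglandin synthesis, breakdown, transport and signalling in LNCaP cells, an androgen-sensitive prostate cancer line from a lymph node metastasis. The 10 genes were listed by their role in the pathway, out of 36137 gene symbols in the deposited count table, and HPGD was taken because it was among the largest rises after androgen. Of the 10, 4 make prostaglandins (PTGS1, PTGS2, PTGES, PTGES2), 3 break them down (HPGD, PTGR1, PTGR2), 1 carries them into cells (SLCO2A1) and 2 are receptors (PTGER2, PTGER4). 8 of the 10 had enough reads to be tested. PTGS2 and PTGER2 did not.

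RNA was sequenced from 4 groups of 3 libraries each, all from the same cell line. Cells received a non-specific siRNA or siRNA against PXN, the gene of the focal adhesion adaptor paxillin, for 48 h. After 12 h without serum they were given 2.5 nM dihydrotestosterone (DHT), the most potent natural androgen, or ethanol as vehicle for 24 h. The groups are therefore non-specific siRNA with vehicle, non-specific siRNA with DHT, PXN siRNA with vehicle and PXN siRNA with DHT. All were serum starved, and the line is a culture of tumour-derived epithelial cells alone.

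Prostaglandins are made from arachidonic acid, which the cyclooxygenases PTGS1 and PTGS2 turn into an unstable intermediate that terminal synthases such as PTGES and PTGES2 convert to prostaglandin E2. The signal is ended by uptake through the transporter SLCO2A1 and by oxidation of the 15-hydroxyl group by HPGD, after which the reductases PTGR1 and PTGR2 complete the inactivation. Prostaglandin E2 acts through receptors that include PTGER2 and PTGER4, both of which raise cyclic AMP, and HPGD is known as an androgen-responsive gene in prostate cancer cells.

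HPGD lies on the minus strand of chromosome 4 (GRCh38, GENCODE 29 gene span 174490177 to 174523154). The results turn on this gene, so the 250 bases upstream of each of its 2 RefSeq start sites (GRCh38.p14) are given, 5′ to 3′ on the minus strand, with every CpG in capitals. The first is chr4:174522489-174522738 and the second chr4:174522894-174523143.

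HPGD start 1: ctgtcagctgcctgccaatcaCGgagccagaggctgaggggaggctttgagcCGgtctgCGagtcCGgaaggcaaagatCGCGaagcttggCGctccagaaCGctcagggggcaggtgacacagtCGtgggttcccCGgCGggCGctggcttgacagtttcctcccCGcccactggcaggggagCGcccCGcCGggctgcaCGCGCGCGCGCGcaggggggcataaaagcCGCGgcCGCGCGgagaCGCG
HPGD start 2: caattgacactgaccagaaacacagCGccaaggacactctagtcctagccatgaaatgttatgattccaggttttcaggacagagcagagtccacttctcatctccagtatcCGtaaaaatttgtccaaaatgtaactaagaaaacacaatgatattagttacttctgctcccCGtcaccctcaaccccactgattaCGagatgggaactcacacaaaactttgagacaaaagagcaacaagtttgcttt

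The 2 starts differ in base composition: the first stretch holds 29 CpG dinucleotides and the second 4. Counted over the whole 300-base window of the reference table, which adds 50 bases after the start, the values were 34 and 7, against a median of 14 over all windows. The table held windows for 9 of the 10 genes, 14 in all, and SLCO2A1 had none.

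Library totals were 34321000 to 38633456 counts. Levels are given in CPM, counts relative to a library size scaled by TMM (a scaling that balances the bulk of genes between libraries), so that 1 CPM stands for 33.7 to 38.2 counts. PXN itself averaged 108 CPM with non-specific siRNA and vehicle against 17.1 CPM with PXN siRNA, and 106 against 18.2 CPM under DHT. The androgen-responsive genes KLK3 and TMPRSS2 rose with DHT under both siRNAs (edgeR, adjusted p at most 0.0111). 7 luminal prostate markers were all present. After non-specific siRNA their summed level was 3413 to 3957 CPM with vehicle and 5707 to 5910 CPM with DHT. After PXN siRNA it was 2414 to 2742 and 2883 to 3267 CPM. With DHT after non-specific siRNA, KLK3 (649 to 2235 CPM), KLK2 and TMPRSS2 were called higher. FOLH1 (1615 to 1325 CPM), HOXB13, KRT8 and KRT18 were not called there. In vehicle, PXN siRNA gave lower calls for KLK3, KLK2, FOLH1, KRT18 and HOXB13, and none for KRT8 and TMPRSS2. Of the genes marking other cell types, TP63 (basal epithelium) had at most 1 count in any library, and PTPRC (leukocytes), COL1A2 (stroma) and PECAM1 (endothelium) at most 3. Other markers on those lists were read, with 444 to 795 counts a library for VWF (endothelium), 101 to 277 for COL3A1 (stroma), 2 to 17 for CSF1R (leukocytes) and 2 to 19 for KRT14 (basal epithelium). CSF1R averaged 0.132 CPM with non-specific siRNA and 0.347 CPM with PXN siRNA in vehicle, and 0.104 and 0.395 CPM under DHT. After non-specific siRNA it had at most 6 counts a library. It had enough reads to be tested only through the PXN siRNA libraries, so its values are given as a description. KRT14 averaged 0.102 CPM in vehicle and 0.439 CPM with DHT after non-specific siRNA, and 0.184 CPM with DHT after PXN siRNA. It had enough reads to be tested only through the non-specific DHT libraries (12 to 19 counts). Its values are therefore given as a description too. The summed stromal list was 25.6 to 32.8 CPM after non-specific siRNA and 36.1 to 44.2 CPM after PXN siRNA. Of its genes COL1A1 was called higher after PXN siRNA and COL3A1 lower, both in vehicle and under DHT. LUM had 13 to 29 counts a library with non-specific siRNA and vehicle, and at most 6 after PXN siRNA. Only through those non-specific vehicle libraries did it have enough reads to be tested, so no call is given for it. The share of counts from mitochondrial genes was 4.69 to 7.55% after non-specific siRNA against 8.13 to 8.95% after PXN siRNA. The part of these in the PXN siRNA and DHT differences was not tested.

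Among genes compared per length (CPM per kb of exon), PTGES2 was the highest member with non-specific siRNA and vehicle at 31.0 ± 0.307 (SD, n = 3), followed by PTGR1 at 15.8 ± 1.19 and PTGR2 at 2.72 ± 0.0461. PTGER4 was next at 0.374 ± 0.0278. PTGES at 0.276 ± 0.147, HPGD at 0.158 ± 0.0207 and PTGS1 at 0.149 ± 0.0405 did not differ from their neighbours beyond their spread. With DHT, HPGD stood at 2.16 ± 0.814 CPM per kb, close to PTGR2 at 2.42 ± 0.0213. SLCO2A1, PTGER2 and PTGS2 were lowest, and PTGS2 had 0 counts in 9 of the 12 libraries and 6 counts in all.

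HPGD, the enzyme that begins prostaglandin breakdown, was scarce in vehicle and stood higher with DHT under both siRNAs, at a lower level where PXN had been targeted. With non-specific siRNA and vehicle its 3 libraries had 0.845, 1.00 and 0.777 CPM (29, 37 and 27 counts), and with DHT 6.78, 14.1 and 15.0 CPM (239, 508 and 505 counts). After PXN siRNA the vehicle libraries had 0.926, 0.592 and 0.837 CPM, and the DHT libraries 2.11, 5.26 and 6.11 CPM. The order of the groups was non-specific DHT, PXN DHT and then the 2 vehicle groups, which overlapped each other, while the lowest non-specific DHT library lay above the highest PXN DHT library and every DHT library above every vehicle library. In bulk RNA, fewer cells expressing a gene and less of it per cell cannot be told apart.

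The DHT response of HPGD chose it for this account, and every comparison uses libraries of that choice or the response itself, so its differences are given as a description with no test. With non-specific siRNA the DHT response was 3.76 on the log2 scale, the 9th largest rise among all 18468 tested genes. After PXN siRNA it was 2.51 on the log2 scale, the 14th largest. HPGD was chosen as one of the largest rises, so these places restate that choice. The difference of these 2 log2 responses was -1.25. In CPM, the mean rise was 11.1 with non-specific siRNA and 3.71 after PXN siRNA.

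Under DHT, HPGD was lower after PXN siRNA than after non-specific siRNA, at a mean of 4.49 ± 2.11 against 11.9 ± 4.50 CPM (SD, n = 3 each). That is 37.6% of the non-specific level. The log2 fold change was -1.41, and it lay between -1.72 and -1.09 over the 22 alternatives of processing and left-out libraries. In vehicle, where HPGD gave 22 to 37 counts a library, the log2 fold change was -0.16, and it lay between -0.33 and 0.10 over the alternatives. KLK3 and TMPRSS2 were lower in the same PXN siRNA DHT libraries (edgeR, adjusted p = 9.18e-06 and 6.37e-05). KLK3 was already lower in vehicle, with a log2 fold change of -2.21 (edgeR, adjusted p = 3.40e-06). Its DHT response was 1.78 log2 units with non-specific siRNA and 2.06 after PXN siRNA. TMPRSS2 stood at -0.30 in vehicle (edgeR, adjusted p = 0.178), with DHT responses of 2.12 and 1.22. Whether the falls of KLK3 and TMPRSS2 bear on that of HPGD was not tested.

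**Figure D1:**
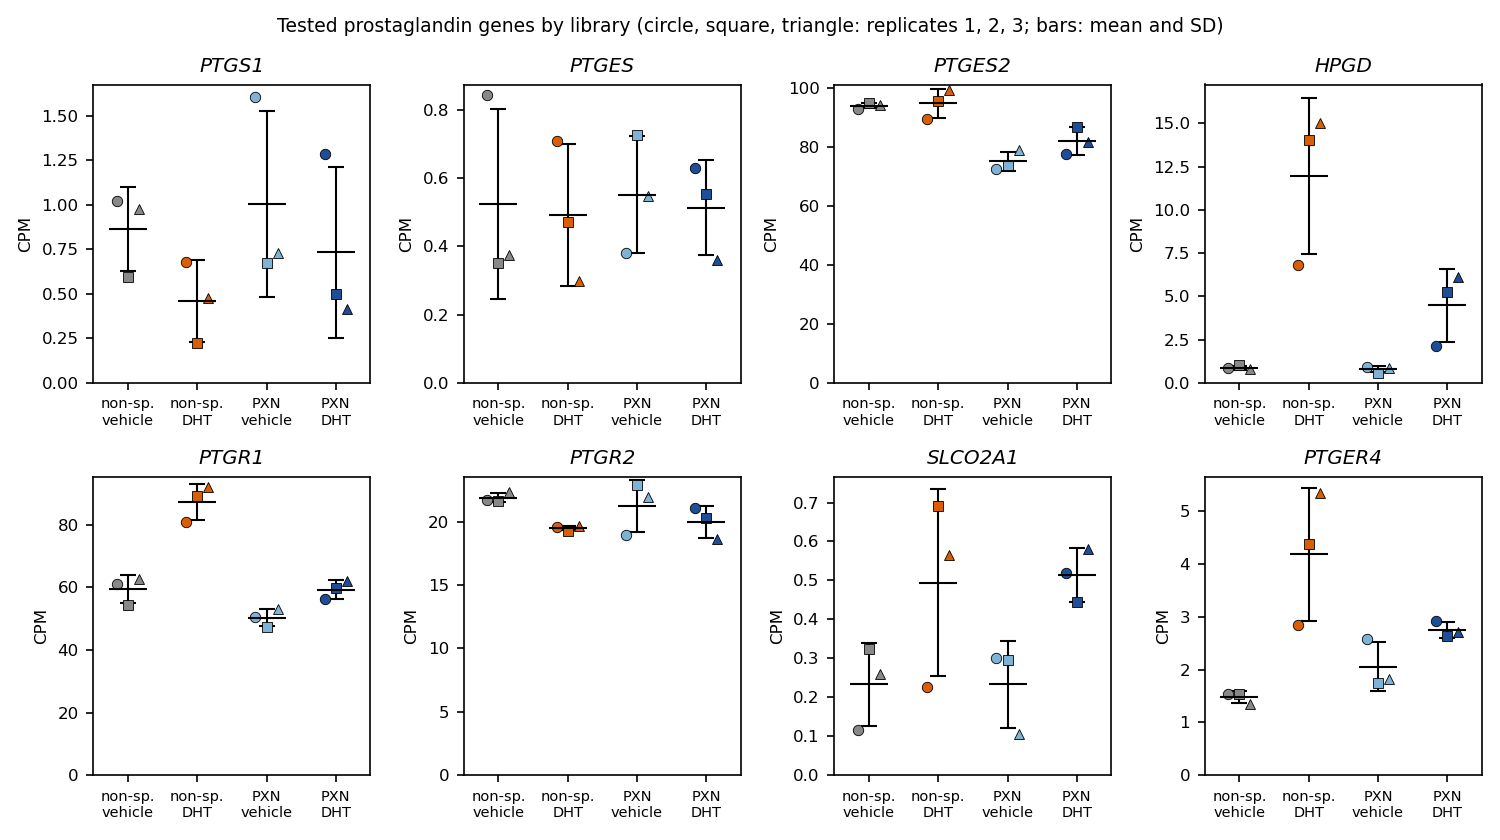
Level in CPM (vertical axes, each from 0) of the 8 tested genes in the 12 libraries, by group; symbols mark replicates 1, 2 and 3, and bars the mean and SD of 3 libraries. HPGD lies at 1.00 CPM or below in every vehicle library, at 6.78 to 15.0 CPM with DHT after non-specific siRNA and at 2.11 to 6.11 CPM with DHT after PXN siRNA, while PTGES2 and PTGR1 are lower after PXN siRNA.

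The libraries numbered 1 were the lowest of their DHT group for HPGD in both arms, at 6.78 and 2.11 CPM. The ratio of the DHT to the vehicle library of the same number was 8.02, 14.1 and 19.3 with non-specific siRNA and 2.27, 8.89 and 7.30 after PXN siRNA. TMPRSS2 followed the same order in the non-specific DHT libraries, at 449, 631 and 710 CPM, whereas KLK3 had 2250.1, 2358 and 2097 CPM. The labels do not say what a shared number stands for.

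**Figure D2:**
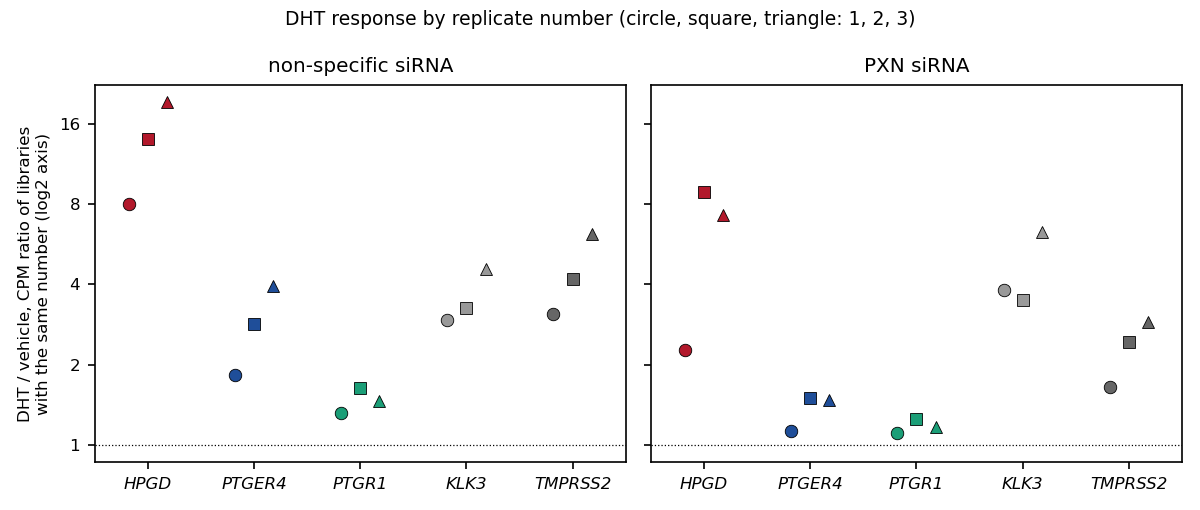
Ratio of DHT to vehicle CPM (vertical log2 axis) for libraries with the same replicate number, for 5 genes, with non-specific siRNA on the left and PXN siRNA on the right. For HPGD the ratios lie between 8.02 and 19.3 on the left and between 2.27 and 8.89 on the right.

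PTGR1, a reductase of the next breakdown step, was lower after PXN siRNA both in vehicle and under DHT. Its vehicle libraries had 61.1, 54.4 and 62.9 CPM with non-specific siRNA and 50.5, 47.5 and 53.0 CPM after PXN siRNA. With DHT its levels were 80.9, 89.2 and 92.0 CPM for non-specific siRNA and 56.3, 59.7 and 62.1 CPM for PXN siRNA, and the groups did not overlap in either condition. The log2 fold change was -0.24 ± 0.07 in vehicle (SE; edgeR, adjusted p = 0.0126) and -0.56 ± 0.07 under DHT (adjusted p = 1.76e-05). The vehicle call was lost with upper quartile scaling (-0.14, adjusted p = 0.117) and without non-specific vehicle replicate 3 (-0.21, adjusted p = 0.0511).

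With non-specific siRNA, PTGR1 was higher with DHT by 0.56 on the log2 scale, given as a description because HPGD was chosen on those libraries. After PXN siRNA its DHT response was 0.24 ± 0.07 (SE, edgeR, adjusted p = 0.338) in the fit without pairing. Under a fit with the replicate number as a block it was 0.24 with an adjusted p of 0.0430, which passed. Its interaction, the difference of the DHT responses, was -0.32 (95% interval -0.54 to -0.10), with an unadjusted p of 0.00727 and an adjusted p of 0.802 over all genes.

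PTGR2, the other reductase, lay between 18.6 and 22.9 CPM in all 12 libraries, and it passed no test. Its 95% interval for PXN siRNA ran from -0.21 to 0.12 log2 units in vehicle and from -0.13 to 0.20 under DHT. With non-specific siRNA it had 21.8, 21.7 and 22.4 CPM in vehicle and 19.6, 19.3 and 19.6 CPM with DHT, groups that do not overlap. Its exons share 989 bases with AC005520.1 and 211 with ZNF410 on the same strand, and 1455 with an antisense gene, so its counts are uncertain. The other members share no exon bases with another gene in GENCODE 29.

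Among the synthesis genes, PTGES2, a widely expressed prostaglandin E synthase, was lower after PXN siRNA. It had 93.1, 94.9 and 94.3 CPM with non-specific siRNA and vehicle and 72.7, 74.0 and 79.0 CPM after PXN siRNA, a log2 fold change of -0.32 ± 0.06 (SE; edgeR, adjusted p = 0.000472) that kept its call in all 22 alternatives. Under DHT it had 89.5, 95.6 and 99.5 against 77.6, 86.9 and 81.7 CPM, a fold change of -0.21 ± 0.06 (adjusted p = 0.00975). The call under DHT was lost with upper quartile scaling (-0.11, adjusted p = 0.151) and without the 4 libraries numbered 3 (-0.17, adjusted p = 0.150), an alternative added after seeing the data. The groups with and without DHT overlapped under both siRNAs.

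PTGS1 and PTGES, the cyclooxygenase that many tissues make constantly and the inducible prostaglandin E synthase, were measured in few reads and passed no test. PTGS1 had 1.02, 0.595 and 0.978 CPM with non-specific siRNA and vehicle, 0.681, 0.221 and 0.475 CPM with DHT, and 0.414 to 1.61 CPM after PXN siRNA. The libraries numbered 1 were the highest for PTGS1 in each of the 4 groups. PTGES lay between 0.297 and 0.845 CPM, and its groups overlapped in all comparisons. The 95% interval of PTGES for PXN siRNA in vehicle ran from -0.78 to 0.95 log2 units. PTGS2, the inducible cyclooxygenase, reached at most 3 counts in a library, where 3 counts stand for 0.0784 to 0.0892 CPM.

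SLCO2A1, the prostaglandin uptake carrier, was detected at 4 to 25 counts a library. It had 0.117, 0.325 and 0.259 CPM with non-specific siRNA and vehicle, 0.227, 0.692 and 0.565 with DHT, 0.300, 0.296 and 0.105 with PXN siRNA and vehicle, and 0.520, 0.443 and 0.580 with PXN siRNA and DHT. The 2 vehicle groups overlapped the non-specific DHT group, whereas the DHT libraries after PXN siRNA all lay above their vehicle libraries. That last difference was 1.13 ± 0.46 on the log2 scale (SE; edgeR, unadjusted p = 0.0269, adjusted p = 0.586) and did not pass.

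PTGER4, a prostaglandin E2 receptor that signals through cyclic AMP, had 1.54, 1.54 and 1.35 CPM with non-specific siRNA and vehicle and 2.84, 4.37 and 5.35 CPM with DHT. After PXN siRNA it had 2.59, 1.75 and 1.83 CPM in vehicle and 2.93, 2.63 and 2.71 CPM with DHT. In vehicle the PXN siRNA libraries all lay above the non-specific ones, by 0.47 ± 0.23 on the log2 scale (SE; edgeR, adjusted p = 0.107), which did not pass. Under DHT the mean was lower after PXN siRNA, at -0.60 ± 0.21 (adjusted p = 0.0250), although the lowest non-specific library, at 2.84 CPM, lay within the PXN siRNA range.

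That DHT call for PTGER4 was not stable. It was lost without non-specific DHT replicate 2 (-0.59, adjusted p = 0.0546) or 3 (-0.41, adjusted p = 0.134), without PXN DHT replicate 2 (-0.59, adjusted p = 0.0594) or 3 (-0.61, adjusted p = 0.0591), and with upper quartile scaling (-0.50, adjusted p = 0.0592). Without the 4 libraries numbered 2 or 3 the adjusted p was 0.131 and 0.312. Over the 22 alternatives the adjusted p ran from 0.00147 to 0.312. The DHT response of PTGER4, from a mean of 1.48 to 4.19 CPM with non-specific siRNA (a description) and 0.42 ± 0.22 log2 units after PXN siRNA (SE; edgeR, adjusted p = 0.751), differed between the siRNAs by -1.07 log2 units (95% interval -1.74 to -0.41, unadjusted p = 0.00385, adjusted p = 0.741). PTGER2, the other receptor, reached at most 4 counts and was not tested.

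Counts of calls leave out HPGD. Over the other 7 tested members, PXN siRNA in vehicle gave 2 calls, PTGES2 and PTGR1, both lower, where 50.2% of all 18468 tested genes were called and 26.3% were called lower. Under DHT it gave 3 calls, PTGES2, PTGR1 and PTGER4, all lower, where 51.8% of all genes were called and 26.7% were called lower. These counts are near or within what the background gives and are no result about the members as a group. The median log2 fold change of the 7 was -0.02 in vehicle and 0.04 under DHT, against 0.02 and 0.03 over all tested genes. With upper quartile scaling, which shifted the median of all genes to 0.117 and 0.130, the calls were 1 and 1. Of all genes 51% and 53.1% were called there. The vehicle count was also 1 without non-specific vehicle replicate 3, where 42.2% of all genes were called. The DHT count was 1 without the 4 libraries numbered 3, where 32.5% of all genes were called.

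For DHT with non-specific siRNA, where 4.87% of all genes were called and 2.72% higher, 2 of the 7 were called, PTGR1 and PTGER4, both higher; since that contrast chose HPGD, nothing is read from this count. After PXN siRNA, in the fit without pairing, 0.184% of all genes were called. There 0 of the 7 members passed in edgeR, 2 at an unadjusted p under 0.05, and 0 in DESeq2 and in limma-voom. With the replicate block 1 of the 7 passed (PTGR1), where 1.87% of all genes were called. For the interaction 0% of all genes were called, and 0 of the 7 passed in edgeR, 2 at an unadjusted p under 0.05, and 0 in DESeq2 and in limma-voom.

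**Figure D3:**
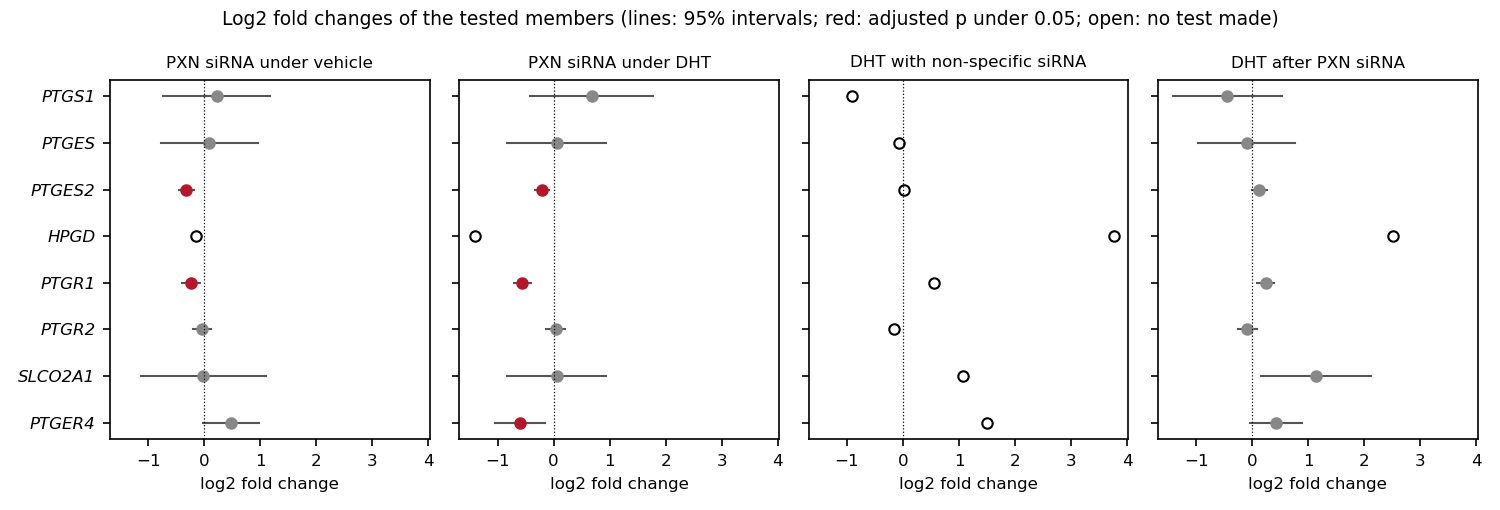
Log2 fold changes (horizontal axes) of the 8 tested genes in 4 comparisons, with 95% intervals; red points had an adjusted p under 0.05, and open points carry no test because HPGD was chosen on the DHT response. Red points number 2 for PXN siRNA under vehicle and 3 under DHT, all below 0, HPGD is open throughout, and the widest intervals belong to genes with few reads such as PTGS1, PTGES and SLCO2A1.

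A wider list of 65 eicosanoid genes around the members was examined, 48 of which were tested. PXN siRNA gave 11 higher and 16 lower calls in vehicle, and 12 higher and 16 lower under DHT. Without the 4 libraries numbered 3 the vehicle calls numbered 14, where 30.9% of all genes were called. These shares are close to those over all genes. With upper quartile scaling the calls were 15 higher and 14 lower in vehicle, where 51% of all genes were called. Under DHT they were then 16 higher and 14 lower, where 53.1% of all genes were called. Of the calls over all genes with that scaling, 60.2% in vehicle and 60.7% under DHT were higher, so nothing is read from this shift. The 2 comparisons share no library, and 24 genes were called in the same direction in both, 88.9% of the vehicle calls and 85.7% of the DHT calls, with 0 called in opposite directions. Over all 18468 tested genes 7869 were called in the same direction in both, 84.8% of the vehicle calls and 82.3% of the DHT calls, and 6 in opposite directions, so nothing is read from the overlap of the list. By role in vehicle, arachidonic acid release had 6 higher and 3 lower of 16, and terminal synthases and reductases 4 and 4 of 10. Transport had 0 and 3 of 3, and receptors 0 and 2 of 5. The lipoxygenase branch had 1 and 3 of 8, and oxidation after the first step 0 and 1 of 6. Over all tested genes 23.9% were called higher and 26.3% lower there, and nothing is read from the counts of single roles.

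In release, MGLL, which frees arachidonic acid from 2-arachidonoylglycerol, rose from 10.2 ± 0.685 to 29.2 ± 5.14 CPM with PXN siRNA in vehicle (SD, n = 3), a log2 fold change of 1.51 ± 0.12 (SE; edgeR, adjusted p = 2.75e-07). Under DHT it rose from 12.4 to 31.3 CPM. EPHX2, the soluble epoxide hydrolase, fell from 65.6 ± 2.10 to 36.6 ± 3.71 CPM in vehicle (adjusted p = 7.33e-07) and from 70.6 to 38.3 CPM under DHT. CBR1, a carbonyl reductase that can reduce prostaglandin E2, fell from 44.2 ± 2.75 to 24.6 ± 2.01 CPM (adjusted p = 1.51e-06) and from 43.3 to 25.1 CPM under DHT. PTGFR, the prostaglandin F receptor, fell from 43.5 ± 6.38 to 18.3 ± 3.75 CPM in vehicle (adjusted p = 5.12e-06). None of the 3 libraries of one siRNA overlapped those of the other for these 4 genes. They were named for the smallest p among the calls, so nothing is read from that.

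ACSL3, a long-chain acyl-CoA synthetase that activates fatty acids, and ABCC4, which exports prostaglandins, were the 2 of the 48 called with DHT after non-specific siRNA, a count given as a description since that contrast chose HPGD. ACSL3 had 257, 244 and 230 CPM in vehicle and 380, 539 and 568 CPM with DHT. After PXN siRNA it had 183, 199 and 173 CPM in vehicle and 207, 248 and 248 CPM with DHT. ABCC4 had 410, 327 and 301 CPM in vehicle and 566, 675 and 686 CPM with DHT, and 237, 261 and 203 CPM against 262, 333 and 316 CPM after PXN siRNA. Both were lower after PXN siRNA in vehicle and under DHT, by 1.08 log2 units each under DHT (ACSL3: log2 fold change -1.08, edgeR adjusted p = 5.73e-06). In vehicle the log2 fold change was -0.40 for ACSL3 (edgeR, adjusted p = 0.0145) and -0.57 for ABCC4 (adjusted p = 0.00176). The vehicle call of ACSL3 was lost with upper quartile scaling and without the 4 libraries numbered 3, whereas its call under DHT and both calls of ABCC4 were kept in all 22 alternatives.

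With the replicate block, 8 of the 48 were called for DHT with non-specific siRNA, where 2236 of all 18468 genes were called (12.1%). Without non-specific DHT replicate 1 the count was 5, where 7.19% of all genes were called, and without the libraries numbered 3 it was 0, where 0.349% were called. After PXN siRNA 0 of the 48 passed in edgeR, 2 at an unadjusted p under 0.05, and 0 in DESeq2 and limma-voom. For the interaction 0 passed in edgeR, 3 at an unadjusted p under 0.05, and 0 in limma-voom. In DESeq2 1 passed (ACSL3), where 0.2% of all genes were called. AKR1C1 and AKR1C2 are near-identical and AKR1C3 is a close paralog, so the counts of all of them are uncertain because reads can be split between them. With PXN siRNA in vehicle AKR1C1 went from 2.18 to 3.76 CPM (edgeR, adjusted p = 0.0191) and AKR1C3 from 2.68 to 4.51 CPM (adjusted p = 0.0214), while AKR1C2 went from 3.82 to 2.63 CPM (adjusted p = 0.0644), which did not pass.

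**Figure D4:**
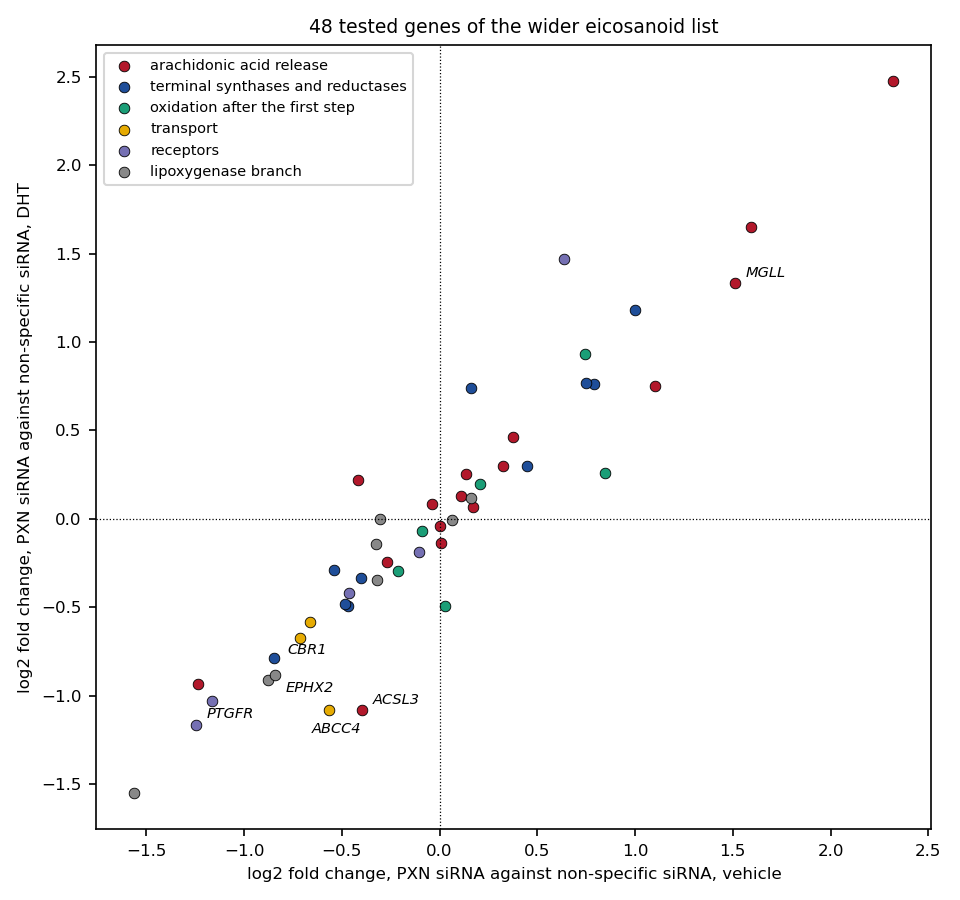
Log2 fold change of PXN siRNA against non-specific siRNA in vehicle (horizontal axis) and under DHT (vertical axis) for the 48 tested genes of the wider list, coloured by role. MGLL is high on both axes, PTGFR, CBR1 and EPHX2 are low on both, and ACSL3 and ABCC4 lie lower under DHT than in vehicle.

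Over the 12 libraries, the 5 genes whose log2 CPM followed HPGD most closely were PMEPA1 (Pearson r = 0.983), KDM4B (0.981), LAMA1 (0.981), LINC01128 (0.979) and TMPRSS2 (0.979), out of 11435 genes that averaged 5 CPM or more in some group. These values are a description: the libraries, their depth and the split by DHT are common to all genes. PMEPA1 averaged 40.2, 192, 37.3 and 84.3 CPM in the non-specific vehicle, non-specific DHT, PXN vehicle and PXN DHT groups. LAMA1 averaged 0.787, 6.12, 0.598 and 2.34 CPM. It reached the 5 CPM limit only in the non-specific DHT group, on which HPGD was chosen, so nothing is read from its place. KDM4B followed the order of the groups over a narrower range, 98.1, 131, 96.5 and 115 CPM. Of the members, PTGER4 (r = 0.884) and PTGR1 (0.852) lay closest to HPGD, and r was negative for PTGR2 (-0.741), PTGS1 (-0.699) and PTGES (-0.272). PTGER4 averaged at most 4.19 CPM in a group, so it was not among the 11435 genes.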

How the data were processed

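Gene counts of 12 RNA-seq libraries were analysed, in 4 groups of 3 by their own labels. The values deposited by the authors are whole-number counts per gene symbol, made from TruSeq Stranded mRNA libraries. Per the submitters' processing notes, Trimmomatic 0.32, STAR 2.4.2a, Subread 1.5.0p3 with featureCounts and the GRCh38 build were used. Not given in the sources used here are the strand setting, the annotation and the treatment of multiply mapped reads. Nothing in the labels says that a group's libraries are separate cultures, and the p-values then reflect the spread among the sequenced samples, which may be technical. No pair of libraries in a group agreed within sampling noise (chi-square per gene 6.03 to 26.6).

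In R 4.3.3, genes were filtered with edgeR 4.0.16 filterByExpr (18468 of 36137 kept), scaled by TMM, and fitted with 1 quasi-likelihood model of 4 group means (8 residual degrees of freedom). The calls were Benjamini-Hochberg adjusted p under 0.05 over all tested genes. SE is the log2 fold change divided by the square root of F. Alternatives used limma 3.58.1, DESeq2 1.42.0, upper quartile scaling, no filter, a replicate block and libraries left out. Scripts were tested on simulated data. Coordinates and lengths are from GENCODE 29, and promoters from RefSeq.

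The members, lists and rules were chosen with earlier results of these data known. Genes were named as all 10 members in every contrast, up to 4 genes of the wider list with the smallest p among the calls per contrast, the 5 genes most like HPGD, and PXN, KLK3 and TMPRSS2 as checks; other marker genes named come from the marker lists. HPGD was chosen on its DHT response and was tested in no contrast, although the design tested it for PXN siRNA; its adjusted p is therefore not given. Some items of these lists are not reported here. The main fit left same-numbered libraries unpaired in every contrast, since the labels do not say what a number stands for. Its p-values therefore leave out any pairing, and the replicate block was an alternative. Same-numbered libraries were judged to pair where every pair's correlation of deviations from group means was over 0.1. For PXN siRNA in vehicle it ran from 0.121 to 0.210. For the DHT response it ran from 0.145 to 0.383 with the non-specific siRNA and from 0.100 to 0.307 after PXN siRNA (lowest 0.0953 with a prior count of 1). For PXN siRNA under DHT the lowest value was 0.0769, which did not meet the rule. PXN siRNA in vehicle and DHT with non-specific siRNA met it. DHT after PXN siRNA met it narrowly, and not with a prior count of 1. The main fit left the libraries unpaired where the rule was met too.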

Additional observations from a re-analysis of the deposited data

How the results depend on the processing

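Of 1092 checks of single genes over the alternatives, 1078 kept their side of the threshold or, where no test was made, moved by less than the spread between replicates, and 0 called values reversed. The number of members called for PXN siRNA in vehicle moved from 2 to 1 with upper quartile scaling and without the libraries numbered 1 or 3. Over all genes these settings called 51%, 38.8% and 30.9%. Under DHT it moved from 3 to 1 with upper quartile scaling and without number 3, where 53.1% and 32.5% of all genes were called. HPGD is left out of the member counts. PTGR1 in vehicle had an adjusted p of 0.0585 and 0.0762 without numbers 1 and 3. For DHT with non-specific siRNA the member count was 1 without number 3, where 0.349% of all genes were called. With a replicate block it was 1 for DHT after PXN siRNA (PTGR1); the block changed no other call of a member, but moved the calls over all genes from 900 to 2236 for the DHT response with non-specific siRNA, and after PXN siRNA from 34 to 346. On the wider list, calls for DHT with non-specific siRNA moved from 2 to 4 with upper quartile scaling and 8 with the replicate block. They were 4 without number 1 and 0 without number 3. Over all genes these settings called 5.05%, 12.1%, 5.73% and 0.349%. Calls for DHT after PXN siRNA became 1 with no low-count filter (0.52% of all genes) and 1 without number 1 (0.721%). The interaction gave 1 with no filter (0.0969%), 1 in DESeq2 (0.2%) and 1 without number 1 (0.118%). PXN siRNA in vehicle gave 14 without number 3, where 30.9% of all genes were called. Leaving out single libraries gave 1 to 2 members for PXN siRNA in vehicle, 2 to 3 under DHT, 2 to 2 for DHT with non-specific siRNA, 0 to 0 for DHT after PXN siRNA and 0 to 0 for the interaction. On the wider list the ranges were 22 to 27 for PXN siRNA in vehicle, 23 to 30 under DHT, 2 to 5 for DHT with non-specific siRNA, 0 to 0 for DHT after PXN siRNA, and 0 to 1 for the interaction; the count of 5 came without non-specific DHT replicate 1. Over all genes, the fits with single libraries left out called 41.4 to 49.8% for PXN siRNA in vehicle and 43.7 to 52.4% under DHT. They called 2.2 to 7.19% for DHT with non-specific siRNA, 0.0529 to 0.423% for DHT after PXN siRNA and 0 to 0.238% for the interaction. For counts that moved with scaling, filtering or left-out libraries the cause was not tested. Leaving out libraries reduces the samples, and some counts fell while others rose. PTGS1, PTGES and SLCO2A1 had at most 59 counts a library.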
